A study of Mus musculus with 12 samples.

Results

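Matricellular proteins are secreted into the extracellular matrix, where they chiefly signal rather than bear load. They bind collagens, integrins and other cell-surface receptors, and several of them store or activate growth factors such as TGF-beta. In skeletal muscle they are made largely by fibroblasts, and they accumulate after injury and in fibrotic muscle. The transcripts of 10 such genes were followed here: Postn, Cilp, Spp1, Comp, Thbs1, Thbs2, Thbs4, Tnc, Fn1 and Sparc. They were taken from a list of gene names, and all 10 were present in each of the 3 deposited tables, out of 28995 genes found in any table.

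The cells were primary hindlimb muscle fibroblasts of wild-type C57 BL/10 pups at postnatal day 3. They were cultured in steroid-depleted serum and then exposed for 48 h to 1 µM aldosterone (the mineralocorticoid receptor agonist), 1 µM spironolactone (an antagonist of that receptor) or the DMSO vehicle alone. Fibroblasts came from 2 mice, with 2 plates for each mouse and treatment, which gave 4 libraries per group and 12 in all. Libraries are numbered by sample (1 or 2) and by biological replicate (1 or 2), but it is not stated which number is the mouse. The p-values on treatment alone therefore measure the spread among 4 plates from 2 mice. Those from fits that include the sample number measure only the spread among plates left once that number is accounted for. The question was how direct stimulation with aldosterone alters these fibroblasts. Spironolactone was given alone, never together with aldosterone, and the study used it to check that the serum had been cleared of steroids. Whether spironolactone blocks the response to aldosterone was therefore not tested. Whether that response ran through the mineralocorticoid or the glucocorticoid receptor was not tested either.

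Libraries held 19136923 to 30219185 reads on genes. All 7 fibroblast markers were expressed. Their sum was 4886 to 5415 RPKM (reads scaled to gene length in kilobases and to library depth) with vehicle, 4372 to 5033 with spironolactone and 3808 to 4352 with aldosterone, so the aldosterone libraries lay below all others. Against vehicle, Pdgfra rose with aldosterone and the other 6 did not pass on treatment alone, while all 6 were lower when the sample number entered the fit as a block. Col1a1 (mean 3688 RPKM with vehicle, 2842 with aldosterone) and Col1a2 (1275 and 1095) made up most of the sum and of its fall. The part of this shift in the results below was not tested. The macrophage markers Ptprc, Adgre1 and Csf1r and the muscle precursor markers Pax7, Myod1 and Myog each stayed under 1 RPKM in every library. Lyz2, Cd68 and Des, from the same lists, did not. Lyz2 stood at 3.99 to 6.37 with vehicle, 3.93 to 5.82 with spironolactone and 4.49 to 5.40 with aldosterone. With vehicle, Cd68 reached 1.21 and Des 1.48. The endothelial markers Pecam1 and Cdh5 also stayed under 1 in every library. Kdr rose with aldosterone (log2 fold change 1.88), within a summed endothelial level of at most 1.22 RPKM. Mural markers were expressed, at a sum of 33.1 to 47.2 RPKM with vehicle, 34.2 to 49.1 with spironolactone and 26.3 to 41.7 with aldosterone. No mural marker passed on treatment alone (1 of 3 was lower with the block). Fkbp5, a textbook target of steroid receptors, rose from 330 ± 38.7 to 6330 ± 473 normalized counts (SD, n = 4) with aldosterone, and Tsc22d3, Per1 and Zbtb16 also rose, with log2 fold changes of 2.69, 1.83 and 6.67. None of these steroid targets passed the test between spironolactone and vehicle. For Per1 and Tsc22d3, however, all spironolactone libraries lay above all vehicle libraries, while 2.63% of all genes were separated in either direction.

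Promoter sequences are shown for the pair of genes that the study itself singled out on these samples, Postn and Cilp, and for Sparc, the member whose level moved least. They come from RefSeq on GRCm38.p6, cover the 250 bases before the annotated start and read 5′ to 3′ on the strand of the gene. Capitals mark TATATAA in Postn and Cilp, a run of the kind found in TATA boxes. In Sparc they mark AGAACA on either strand (its reverse complement reads TGTTCT), the core motif of the element that mineralocorticoid and glucocorticoid receptors bind.
Postn, chr3:54360857-54361106, plus strand: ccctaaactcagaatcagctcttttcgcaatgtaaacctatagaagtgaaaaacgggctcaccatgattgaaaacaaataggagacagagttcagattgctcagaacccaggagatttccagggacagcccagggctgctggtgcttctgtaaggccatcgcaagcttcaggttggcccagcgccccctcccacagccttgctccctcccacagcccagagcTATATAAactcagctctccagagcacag
Cilp, chr9:65264930-65265179, plus strand: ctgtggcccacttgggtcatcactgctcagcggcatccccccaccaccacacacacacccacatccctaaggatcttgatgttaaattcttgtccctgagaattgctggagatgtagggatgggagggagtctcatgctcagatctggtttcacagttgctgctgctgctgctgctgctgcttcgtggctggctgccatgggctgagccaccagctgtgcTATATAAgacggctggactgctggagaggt
Sparc, chr11:55420081-55420330, minus strand: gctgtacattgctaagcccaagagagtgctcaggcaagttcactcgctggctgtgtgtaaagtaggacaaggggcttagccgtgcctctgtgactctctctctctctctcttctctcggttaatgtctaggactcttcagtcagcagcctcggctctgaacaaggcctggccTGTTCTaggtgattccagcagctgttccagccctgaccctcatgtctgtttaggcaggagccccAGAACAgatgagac

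The table matched 7 of the 10 genes (Postn, Cilp, Spp1, Thbs2, Thbs4, Tnc and Sparc) with 10 windows, since some genes have more than 1 annotated start. Only the Sparc window held the core motif on either strand, at 78 and at 14 bases before the start. Over all 32851 windows of the same length, 16.1% held it. The full palindrome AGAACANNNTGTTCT was in none of the 10 windows and in 3 windows overall. TATATAA, searched on both strands after the sequences had been seen, began 28 bases before the start in 1 of the 2 Postn windows, the one printed, 30 in Cilp and 29 in 1 of the 2 Tnc windows, against 3.04% of all windows. No match says only that these letters are not in that window, and each match is a description of sequence.

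Levels were compared between genes only per length, in RPKM. In vehicle-treated fibroblasts the highest of these transcripts stood 1026-fold above the lowest. Thbs1, an adhesive glycoprotein that can activate latent TGF-beta, stood at 4223 ± 335 (SD, n = 4) and ranked 2 among the 28995 genes. Fn1, the fibronectin that cells assemble into fibrils, followed at 1815 ± 72.7, and Sparc, a collagen-binding calcium-binding glycoprotein, at 1691 ± 102. The ranges of Fn1 and Sparc overlapped across libraries. Comp came next at 352 ± 9.75. Spp1 (88.3 ± 13.2), Thbs2 (86.5 ± 2.00), Postn (81.7 ± 9.79), Tnc (68.2 ± 7.97) and Thbs4 (63.6 ± 24.5) lay close together, and each overlapped its neighbours in this order. Cilp was far lower at 4.12 ± 0.761, with 280 to 1124 reads per library over all 12 libraries, and it is the member whose value rests on the fewest reads.

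**Figure D1:**
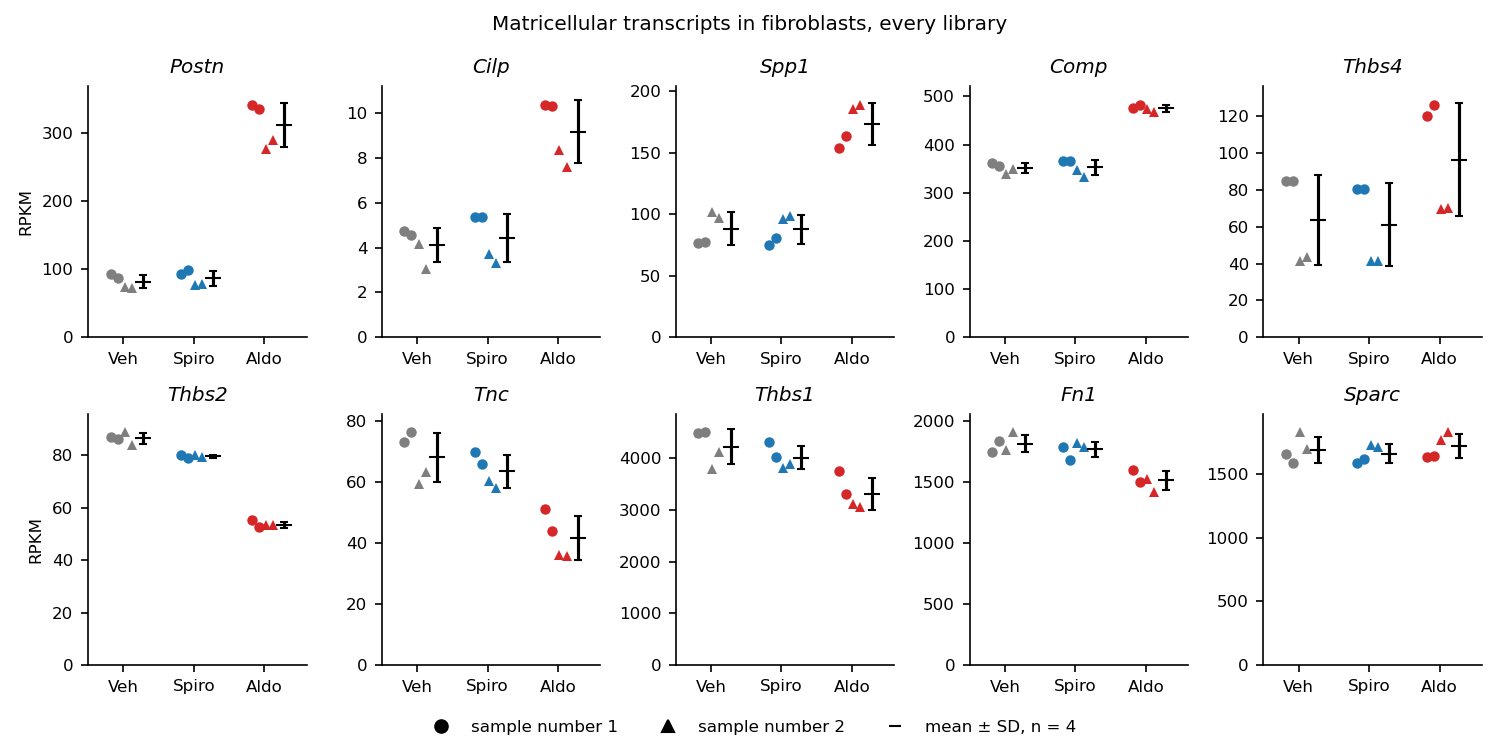
Level of each gene in every library, in RPKM (linear y axes from 0), by treatment, with circles for sample number 1, triangles for sample number 2 and a bar for mean ± SD of 4 libraries. Postn, Cilp, Spp1 and Comp lie higher in all 4 aldosterone libraries. Thbs2, Tnc, Fn1 and, narrowly, Thbs1 lie lower, and Thbs4 splits by sample number within each treatment.

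The order changed with aldosterone. Postn reached 311 ± 32.4 RPKM and moved from rank 473 to rank 111 among all genes. Comp rose to rank 51 at 475 ± 6.32. Fn1 (1513 ± 74.8) now lay below Sparc (1719 ± 94.7) without overlap, while Thbs1 kept rank 2 at 3311 ± 313. Together the 10 genes took 5.65% ± 0.201 of all reads on genes with vehicle, 5.45% ± 0.135 with spironolactone and 4.98% ± 0.272 with aldosterone. Most of this share belonged to Thbs1 and Fn1, at 2.56% and 2.12% of reads with vehicle and 2.01% and 1.77% with aldosterone.

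Against vehicle, aldosterone raised 4 of the 10 transcripts (Postn, Cilp, Spp1 and Comp) and lowered 2 (Thbs2 and Tnc) at an adjusted p of 0.05. The same test called 5.68% of all 27319 genes higher and 4.74% lower. Of the 4 that rose, Postn, Cilp and Spp1 also reached a log2 fold change of 1, as did 1.4% of all genes. None of the 10 was lower at both thresholds, against 0.666% of all genes. In 7 of the 10 the aldosterone and vehicle libraries did not overlap in normalized counts, compared with 14.5% of all genes. The median log2 fold change of the 10 was 0.27, with 6 above and 4 below 0, beside -0.003 over the 15245 genes that averaged 10 or more normalized counts. In bulk RNA, fewer cells of a type and less RNA per cell cannot be told apart.

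Postn (ENSMUSG00000027750, chr3:54268530-54298458) encodes periostin, which binds integrins and promotes collagen crosslinking. Its normalized counts were 73592 and 72086 in the aldosterone libraries of sample number 1 and 57901 and 59865 in those of sample number 2. The vehicle libraries held 19302 and 18031, then 15107 and 14705, in the same order. The lowest aldosterone library thus lay far above the highest vehicle library. The log2 fold change was 1.97 ± 0.097 (SE), a 3.93-fold rise with a 95% interval of 3.40 to 4.53 (limma, adjusted p = 6.76e-10).

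Cilp (ENSMUSG00000042254, chr9:65172462-65187887) encodes cartilage intermediate layer protein, a matrix protein that binds TGF-beta and can restrain its signalling. Aldosterone libraries held 1092 and 1083 normalized counts for sample number 1 and 853 and 768 for sample number 2. Vehicle libraries held 482, 458, 412 and 301. All 4 treated libraries exceeded all 4 vehicle libraries, and the log2 fold change was 1.20 ± 0.137 (SE), a 2.30-fold rise with a 95% interval of 1.88 to 2.82 (limma, adjusted p = 1.43e-05). Because the study named Postn and Cilp from these same libraries, their rise here is no independent evidence of it.

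Spp1 (ENSMUSG00000029304, chr5:104582984-104588916) encodes osteopontin, a secreted phosphoprotein that binds integrins and Cd44 and is also made abundantly by macrophages. It rose from 3026, 3019, 3926 and 3737 normalized counts with vehicle to 6269, 6669, 7348 and 7396 with aldosterone. The groups were far apart, and in contrast to Postn and Cilp the libraries of sample number 2 were the higher ones within each treatment. The log2 fold change was 1.02 ± 0.085 (SE), or 2.03-fold, with a 95% interval on the log2 scale of 0.84 to 1.20 that spans the threshold of 1 (limma, adjusted p = 3.97e-07). It lay at 0.96 to 0.99, just under that threshold, without either vehicle library of sample number 1 or either aldosterone library of sample number 2. Of the 6 macrophage markers, the 5 in this table summed to 5.74 to 6.61 RPKM with aldosterone and 5.52 to 7.63 with vehicle, and none of them passed the test.

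The pentameric thrombospondins both had higher levels with aldosterone, but only Comp passed the main test. Comp (ENSMUSG00000031849, chr8:70826208-70834716), cartilage oligomeric matrix protein, helps organise collagen fibrils. Its normalized counts were 34886, 35367, 33721 and 32922 with aldosterone and 25767, 24974, 23477 and 24214 with vehicle. These were among the tightest groups of the 10 genes, and the modest log2 fold change of 0.48 ± 0.058 (SE) passed the test (1.39-fold, limma, adjusted p = 2.86e-05).

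Thbs4 (ENSMUSG00000021702, chr13:92888098-92931326) is a thrombospondin of tendon and muscle matrix. With aldosterone it was at 9759 and 10256 normalized counts for sample number 1 but at 5494 and 5461 for sample number 2. With vehicle the values were 6684 and 6607, then 3164 and 3350. Treatment groups overlapped, because vehicle libraries of sample number 1 exceeded aldosterone libraries of sample number 2. Within each sample number both aldosterone libraries lay above both vehicle libraries. The log2 fold change was 0.67 ± 0.245 (SE) with an adjusted p of 0.107 by limma on treatment alone, and the SE fell to 0.042 with the sample number as a block (adjusted p = 9.18e-14).

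Comp and Thbs4 are also expressed in cartilage and tendon, and markers of those tissues moved with treatment. Of 4 cartilage markers, Sox9 rose (log2 fold change 0.34, limma, adjusted p = 0.00564) and the other 3 did not pass on treatment alone, while with the block 3 were higher and 1 lower. The 4 together summed to 174 to 351 RPKM with aldosterone and 121 to 270 with vehicle. Col2a1 made up most of this sum (mean 224 with aldosterone, 165 with vehicle), while Acan had the lower mean with aldosterone (6.26 against 8.59). Of 3 tendon markers, Scx and Tnmd were lower (log2 fold changes of -0.76 and -0.25, limma, adjusted p of 2.03e-06 and 0.0155), and the sum was 79.8 to 86.4 against 109 to 123. With the block all 3 were lower. Their part in the levels of Comp and Thbs4 was not tested.

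**Figure D2:**
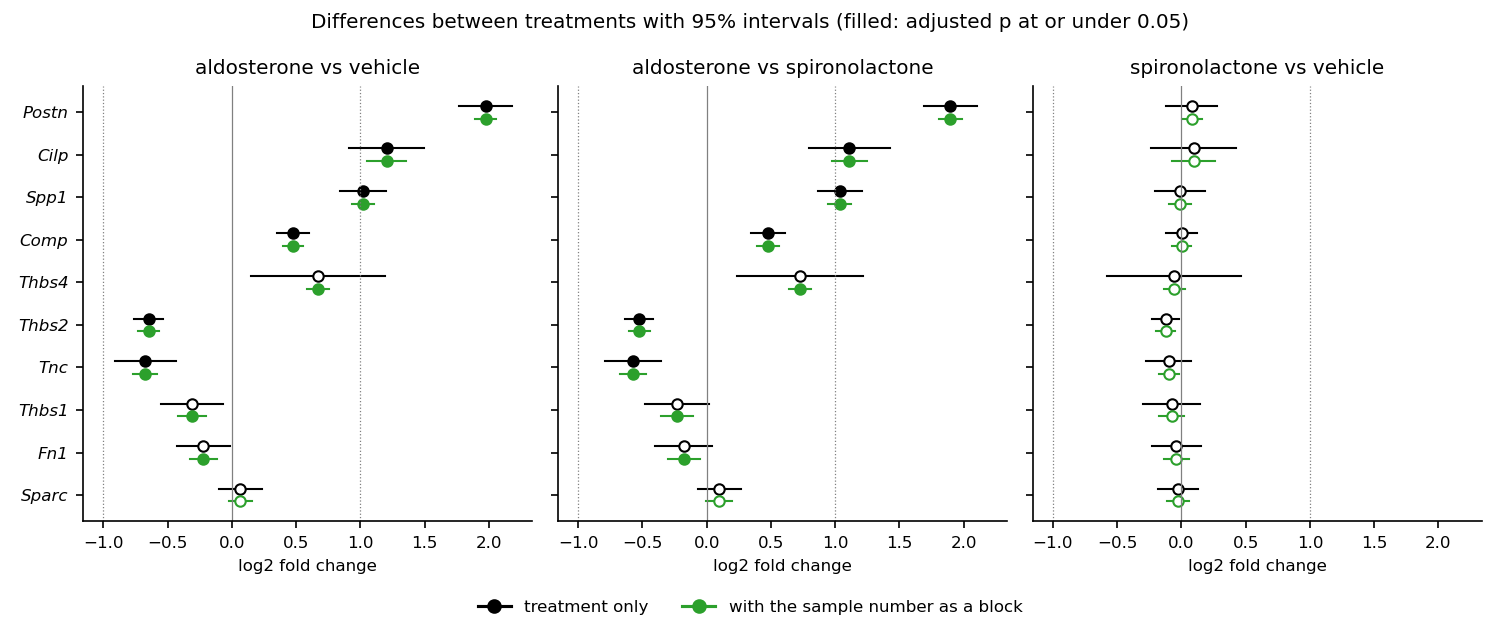
Log2 fold change of each gene (x axis) with its 95% interval in the 3 comparisons, fitted on treatment alone (black) and with the sample number as a block (green), where filled points passed an adjusted p of 0.05 and dotted lines mark a log2 fold change of 1 in size. The block leaves the estimates in place and narrows the intervals most for Thbs4, and no gene passed between spironolactone and vehicle.

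Of the trimeric thrombospondins, Thbs2 fell and Thbs1 had lower values that did not pass on treatment alone. Thbs2 (ENSMUSG00000023885, chr17:14885762-14914497), which limits angiogenesis and clears matrix metalloproteinases, fell from 14641, 14257, 14521 and 13706 normalized counts with vehicle to 9552, 9066, 8969 and 8848 with aldosterone. No treated library came near a vehicle library. With aldosterone the libraries of sample number 1 lay slightly above those of sample number 2, while with vehicle the sample numbers interleaved. Its log2 fold change was -0.65 ± 0.052 (SE), equal to 0.638 of the vehicle level (limma, adjusted p = 2.50e-07). Thbs1 (ENSMUSG00000040152, chr2:117942357-117957614) had 563905, 495112, 454556 and 441464 normalized counts with aldosterone and 653370, 645739, 538076 and 583075 with vehicle. One aldosterone library of sample number 1 lay above a vehicle library of sample number 2, so the groups overlapped in normalized counts. In RPKM they narrowly did not, at no more than 3755 with aldosterone and no less than 3794 with vehicle. The log2 fold change of -0.31 ± 0.115 (SE) did not pass on treatment alone (limma, adjusted p = 0.112) and passed with the block (adjusted p = 3.40e-05).

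Tnc (ENSMUSG00000028364, chr4:63878022-63965252) encodes tenascin C, an anti-adhesive hexameric glycoprotein of developing and injured tissue. It had 9829, 8403, 6739 and 6596 normalized counts with aldosterone and 13680, 14025, 10798 and 11499 with vehicle. The groups did not overlap, although sample number 1 ran higher in both. The log2 fold change was -0.67 ± 0.113 (SE), equal to 0.627 of the vehicle level (limma, adjusted p = 6.58e-04). This call depended on single libraries: it held in 4 of the 8 fits that left out 1 library, and was lost, at adjusted p of 0.053 to 0.061, without either vehicle library of sample number 1 or either aldosterone library of sample number 2.

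Fn1 (ENSMUSG00000026193, chr1:71624679-71692359) held 462603, 433432, 427955 and 393489 normalized counts with aldosterone and 491234, 507807, 481623 and 519556 with vehicle. All aldosterone libraries lay below all vehicle libraries, yet the log2 fold change was only -0.22 ± 0.098 (SE) and did not pass on treatment alone (limma, adjusted p = 0.202). It passed with the block (adjusted p = 0.00190). Sparc (ENSMUSG00000018593, chr11:55285326-55314009) held 153097, 153771, 160705 and 164231 normalized counts with aldosterone and 150727, 141749, 161664 and 149679 with vehicle. These ranges overlapped, and the log2 fold change of 0.07 had a 95% interval of -0.10 to 0.23 (limma, adjusted p = 0.690, and 0.384 with the block).

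With the sample number as a block, the calls came to 5 higher (Thbs4 added) and 4 lower (Thbs1 and Fn1 added), and Sparc alone did not pass. That fit called 8.68% of all genes higher and 8.02% lower. The count tests on recovered reads without a block (DESeq2, edgeR and limma-voom) also called Thbs1 and Fn1 lower and did not call Thbs4.

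Against spironolactone, which shares the aldosterone libraries with the comparison above, the same 4 transcripts were higher and the same 2 lower at an adjusted p of 0.05, where 4.93% and 3.96% of all 27631 genes were called. Postn, Cilp and Spp1 again reached both thresholds, as did 1.38% of all genes. In normalized counts of that table, Postn was at 75831, 74083, 59502 and 61506 with aldosterone and 19514, 21066, 16024 and 16282 with spironolactone. Spironolactone libraries thus stood near the vehicle level, and the log2 fold change was 1.90 ± 0.098 (SE, limma, adjusted p = 4.84e-10). For Cilp the values were 1125, 1113, 876 and 789 against 553, 558, 380 and 337, without overlap, with a log2 fold change of 1.11 ± 0.149 (SE, limma, adjusted p = 5.63e-05).

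The Cilp difference was 0.98 without the second spironolactone library of sample number 2. Spp1 differed by 1.04 ± 0.081 (log2, SE), or 0.96 without the first spironolactone library of sample number 1, and Comp by 0.48 ± 0.062, both past the test. Thbs2 differed by -0.52 ± 0.052 and Tnc by -0.57 ± 0.104 (limma, adjusted p of 1.81e-06 and 0.00124). The Tnc call held in only 1 of the 8 fits that left out a library, the one without the first aldosterone library of sample number 1, and adjusted p otherwise ran from 0.052 to 0.106. Thbs4 (0.73, adjusted p = 0.0641), Thbs1 (-0.23, 0.311) and Fn1 (-0.18, 0.401) did not pass by limma on treatment alone. With the block each of them passed, at adjusted p of 6.22e-16, 0.00830 and 0.0446, where 7.58% of all genes were called higher and 6.8% lower. Sparc differed by 0.10 (limma, adjusted p = 0.604).

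Between spironolactone and vehicle none of the 10 transcripts passed, by limma or by any of the other tests run. The background was 0 of 27598 genes by limma, with 1251 at an unadjusted p under 0.05, while DESeq2 called 12 higher and 1 lower, edgeR called none, and limma with the block called 0.351%. The log2 differences ran from -0.12 for Thbs2 to 0.09 for Cilp. The 95% interval for Postn was -0.12 to 0.28, for Spp1 -0.21 to 0.18 and for Comp -0.12 to 0.12, so changes of 1.5-fold lie outside all 3 of them. The interval for Thbs4, -0.58 to 0.47, was widest and was -0.13 to 0.03 with the block.

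Thbs2 was the 1 member whose spironolactone and vehicle libraries did not overlap, at 13021 to 13316 against 13791 to 14698 normalized counts. Over all genes 2.63% were so separated. The adjusted p was 0.934 by limma and 0.197 with the block, so the separation did not pass.

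Levels also differed between the cultures numbered 1 and 2. In the additive fit of aldosterone and vehicle, 6 of the 10 genes differed between sample numbers, where 8.77% of all genes did. Thbs4 was lower in sample number 2 by 0.95 on the log2 scale (SE 0.042, limma, adjusted p = 2.45e-16) beside 0.67 for its response to aldosterone. Cilp (-0.42), Tnc (-0.38), Postn (-0.32) and Thbs1 (-0.23) were also lower there, and Spp1 was higher (0.27). Comp, Thbs2, Fn1 and Sparc did not pass.

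**Figure D3:**
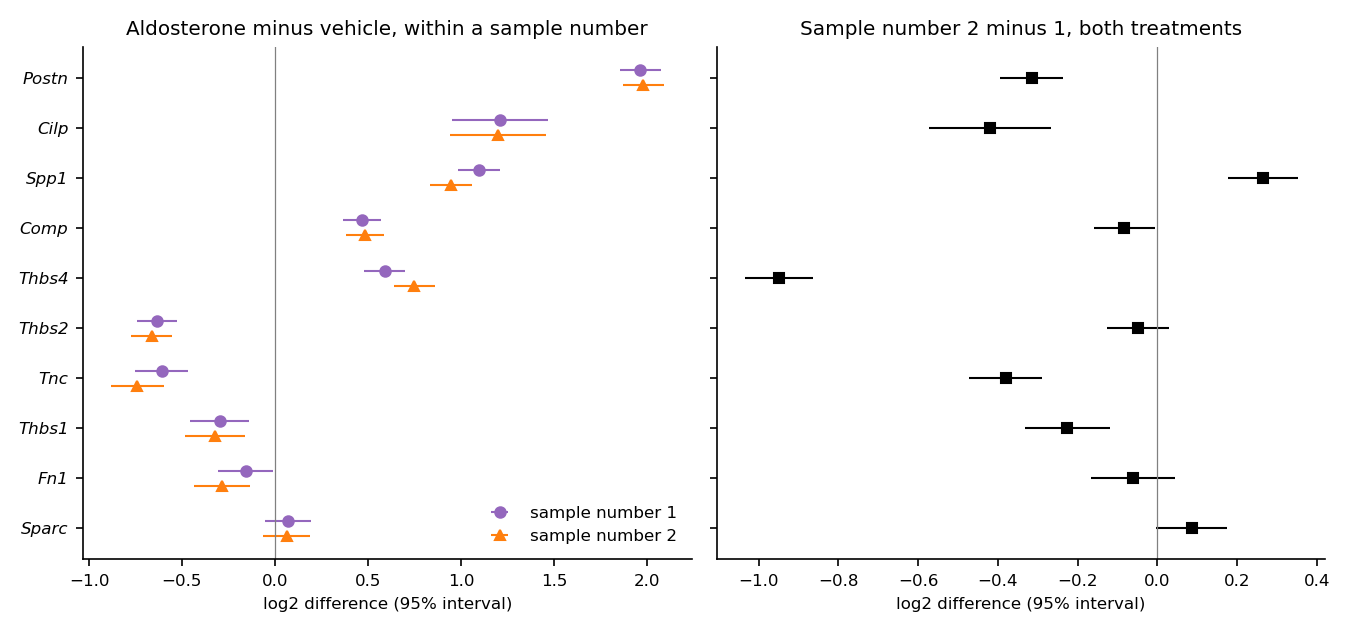
Left, log2 difference between aldosterone and vehicle within sample number 1 (circles) and 2 (triangles); right, log2 difference between sample numbers 2 and 1 over both treatments, each with its 95% interval (x axes). Thbs4 has the widest gap between sample numbers, at -0.95, while its changes with aldosterone within them are 0.59 and 0.75.

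The response to aldosterone could be read within each sample number. Postn rose by 1.97 and 1.98 on the log2 scale in sample numbers 1 and 2, Cilp by 1.21 and 1.20, Spp1 by 1.10 and 0.94, and Thbs4 by 0.59 and 0.75. Tnc fell by 0.61 and by 0.74, and Thbs2 fell by 0.63 and by 0.66. None of the 10 passed the test of the interaction, in which 0.0146% of all genes were called. The interval of the difference in response was -0.14 to 0.17 for Postn, -0.38 to 0.35 for Cilp and 0.003 to 0.32 for Thbs4 (limma, adjusted p = 0.989, 0.996 and 0.895). The Thbs4 interval lay wholly on the positive side, but it is not adjusted for the number of genes tested. Each sample number held 2 libraries per treatment, so differences in response as large as the ends of these intervals remain possible.

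Other matricellular genes also moved in both directions with aldosterone. Of 20 in the list, 8 were higher and 6 lower, and 6 did not pass, with a median log2 fold change of 0.12. Over all genes, 5.68% were called higher and 4.74% lower. With the block 9 of the 20 were higher and 7 lower, beside 8.68% and 8.02% of all genes. The list includes Ccn6, Spock1, Tnr and Vtn, which held at most 11 reads in any library. Spock2, which encodes a testican proteoglycan, rose most, from 61.4 ± 8.03 to 193 ± 53.3 normalized counts (SD, n = 4, log2 fold change 1.60, limma, adjusted p = 1.87e-05). Ccn1 (0.74), an integrin ligand, Sparcl1 (0.99), the closest relative of Sparc, and Ecm1 (0.56) rose as well. Ccn4 (-0.93), a Wnt-induced member of the same family as Ccn1, Tgfbi (-0.87), an integrin ligand related to periostin, and Ccn3 (-0.64) were lower. Postn rose and Tgfbi fell, although both carry fasciclin domains. The Ccn3 call held in 3 of the 8 fits that left out a library.

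Cell-surface receptors for these proteins were called higher in 4 and lower in 4 of 17 cases, or 5 and 5 with the block. The shares over all genes were 5.68% higher and 4.74% lower, or 8.68% and 8.02% with the block. The fibronectin and osteopontin receptor subunits Itga4 (log2 fold change 1.11, from 35.1 ± 8.82 to 76.0 ± 10.7 normalized counts) and Itga5 (0.92) rose, as did the syndecan Sdc4 (0.64). Itga4 was barely expressed, at a mean of 0.107 RPKM with vehicle and 0.224 with aldosterone, beside 57.3 and 106 for Itga5. Cd47 (-0.45), a receptor for thrombospondin 1, Sdc1 (-0.37) and Itgav (-0.32), a subunit of the main periostin and osteopontin receptors, were lower. For Cd47 all spironolactone libraries also lay below all vehicle libraries, as 2.63% of all genes were separated in either direction. Its means were 20.1 RPKM with vehicle, 17.6 with spironolactone and 14.3 with aldosterone. Between spironolactone and vehicle 0 of the 17 receptors passed on treatment alone, and 1 was lower with the block. The Itgav call held in 4 of 8 fits that left out a library. Of 7 proteases that cleave matricellular proteins, Adamts7, which degrades Comp, passed on treatment alone (-0.64, limma, adjusted p = 0.00400), and this call too held in 4 of 8 such fits. With the block 1 protease was higher and 3 were lower.

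Of 15 genes of the TGF-beta axis, 1 was higher and 3 were lower, and their median log2 fold change was -0.08. With the block 2 were higher and 6 lower. Over all genes, 5.68% were higher and 4.74% lower, or 8.68% and 8.02% with the block. Ccn2, connective tissue growth factor and itself matricellular, rose from 16190 ± 1597 to 28669 ± 3678 normalized counts (0.82, limma, adjusted p = 8.15e-06). The transducer Smad3 (-0.52), Tgfbi and the latency protein Ltbp1 (-0.19) were lower, and Ltbp1 passed in only 2 of the 8 fits without a library.

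Among 8 myofibroblast markers 1 was higher and 3 were lower, with a median of -0.38, beside 5.68% and 4.74% of all genes. With the block 1 was higher and 6 were lower, beside 8.68% and 8.02% of all genes. Col12a1, a fibril-associated collagen, rose by 0.43 (log2), while Cthrc1 (-0.84) and Col3a1 (-0.43) were lower. Lrrc15, which the study also singled out, was at 38.1 ± 15.2 normalized counts with aldosterone and 78.1 ± 7.93 with vehicle (log2 fold change -1.08 ± 0.237 SE, limma, adjusted p = 0.00618). Its call held in 2 of the 8 fits that left out a library.

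**Figure D4:**
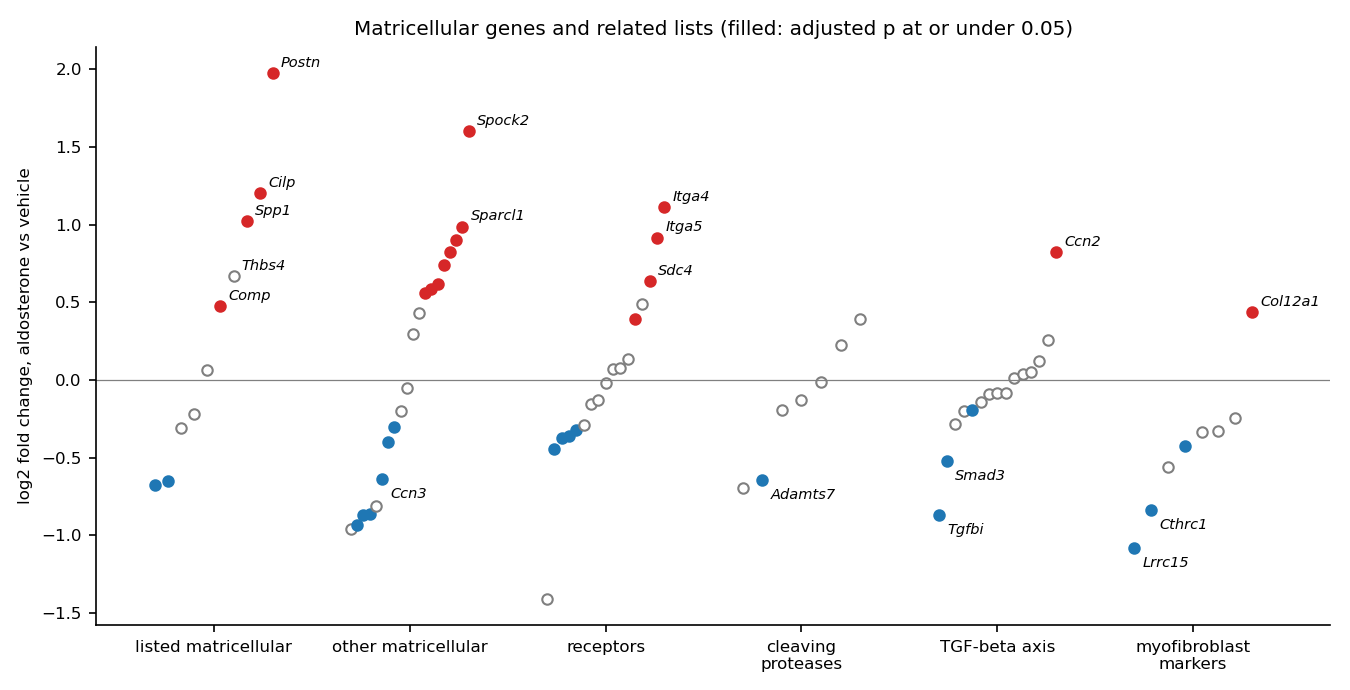
Log2 fold change between aldosterone and vehicle (y axis) of every gene in the lists named along the x axis, sorted within each list, where filled points passed an adjusted p of 0.05 (red higher, blue lower). In this fit on treatment alone, each list but the proteases has filled points on both sides of 0, and Postn at 1.97 is the highest point.

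The genes whose pattern over the 12 libraries was most like Postn were Sgk1, Spsb1, Znhit6, Ms4a4d and Mt1. Likeness was measured as the root mean square difference of centred log2 values among the 11225 genes averaging 100 reads or more, and these differed from Postn by 0.06, 0.08, 0.09, 0.14 and 0.19. Sgk1, the kinase known as a classical aldosterone target, had an aldosterone minus vehicle difference of 1.98 in those values and a sample number 2 minus 1 difference of -0.31, beside 1.98 and -0.32 for Postn. Among the genes nearest to Cilp were Hspb1 (0.10), Ly6a (0.15) and Id4 (0.15). Hspb1, a small heat shock protein, differed by 1.18 with aldosterone and by -0.47 between sample numbers, beside 1.21 and -0.49 for Cilp.

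Few reads of other genes lay within these loci. In the annotation, Tnc, Fn1, Spp1 and Thbs1 each overlapped 1 other gene, which held at most 31 reads in any library, against at least 2789 for the member. The overlaps of Tnc, Fn1 and Thbs1 were antisense, and since the strand setting is not given, reads of those partners could not be separated from the members by strand.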

How the data were processed

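Poly(A) RNA of 12 fibroblast cultures was sequenced, 4 per treatment. Per the labels, reads were aligned with HISAT2 2.0.5 and counted with featureCounts 1.5.0-p3, and the notes name the build mm39, whereas the published methods name another. The strand setting is not given in the sources used here. The authors deposited 3 tables, each holding 1 pair of treatments, with counts divided by a size factor per library (a depth-normalized signal). Columns with the authors' own comparisons (fold changes and p-values) were not used.

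The normalized counts were tested with limma 3.58.1 (R 4.3.3) after log2(value + 1) transformation, letting the prior variance follow the mean level, with Benjamini-Hochberg adjustment over all genes in a table. Calls were made at an adjusted p of 0.05, alone or with a log2 fold change of 1 or more in size. Reads were recovered as whole multiples of each library's step, within a tolerance of 0.1, in 22 of 24 columns, and served for levels per length and for DESeq2 1.42.0, edgeR 4.0.16 and limma-voom. Deviations from the treatment mean correlated at 0.13 to 0.29 over 24 pairs of libraries that share a sample number. The mean was 0.22 for these and -0.22 for pairs of different sample number, values that centring within groups ties together. Pairs that share a biological replicate number averaged -0.003. All pairs reuse the same 12 libraries. The fit with the sample number as a block is therefore given where it changes a call. The pipeline was tested on simulated data.

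The genes, lists and tests were chosen with earlier results of these data known. Besides the members, genes of a list were named at a log2 fold change of 1 or more in size, or among the 3 smallest adjusted p-values of a list and direction. Some genes that these rules select are not reported here.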

Additional observations from a re-analysis of the deposited data

Results flagged for a closer look

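No treatment group of any of the 10 genes held a library far enough from the other 3 to be singled out, over 30 groups checked by Dixon's ratio at the 95% level. Where the libraries of a group form a pair for each sample number, as for Thbs4, this ratio can hardly single out a library. No response to treatment passed the test of a difference between sample numbers.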

How the results depend on the processing

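The numbers of members called higher against vehicle or spironolactone stayed within 1.5 times those reported in every alternative. The count called lower moved. Against vehicle it was 2 on treatment alone and 4 with the replicate block on the sample number, with DESeq2, edgeR and limma-voom on recovered reads, and with edgeR and the block, which was added after the data were seen. Leaving out 1 library gave 1 to 2. Against spironolactone it was 2, and 4 with the replicate block, with DESeq2 and with edgeR and the block, and 1 to 2 without 1 library. The block adds Thbs1 and Fn1 and, among those higher, Thbs4, and changed no other call of a member. Between spironolactone and vehicle the log2 differences of 5 genes, none of which passed, changed sign when 1 library was left out. Without 1 library they ran from -0.050 to 0.228 for Cilp, -0.057 to 0.0062 for Sparc, -0.24 to 0.12 for Thbs4, -0.070 to 0.059 for Spp1 and -0.024 to 0.033 for Comp, whose difference was also -0.00021 with limma-voom and -0.00025 with edgeR and the block. The cause was not tested. With 2 mice, the spread between animals is hardly sampled. Cilp has the fewest reads, and levels per length rest on the gene lengths in the tables.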
